A study of Mus musculus with 12 samples.

Results

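The Asxl1 transgene and the Kdm6b deletion were combined in 4 genotypes of mice, and the analysis described here is the interaction of both changes, (Asxl1Y588XTg Kdm6bΔ/+ minus Asxl1Y588XTg) minus (Kdm6bΔ/+ minus WT) on the log2 scale of normalized counts. A value of 0 means that the effects of both genotypes multiply, which is additivity on the log scale. A negative value places the combined genotype below that expectation and a positive value places it above. All 12 RNA-seq libraries of the series entered 1 fit, with 3 mice per genotype, and the contrast was tested for 15825 of the 55291 genes in the count table. The question it addresses is whether loss of 1 Kdm6b allele has the same effect on expression in cells with the Asxl1 transgene as in cells without it.

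The cells were Lin-cKit+ (LK) bone marrow cells, a bead-sorted fraction that holds hematopoietic stem cells (HSCs) and progenitors, from C57BL/6 mice at 12 months of age. The genotypes were wild type (WT), Kdm6bΔ/+, Asxl1Y588XTg and Asxl1Y588XTg Kdm6bΔ/+. Kdm6bΔ/+ mice had 1 Kdm6b allele deleted by Mx1Cre after injection of pI:pC, and Asxl1Y588XTg mice carried a transgene for a truncated ASXL1. The sources used here do not say whether the WT and Asxl1Y588XTg mice of this experiment carried Mx1Cre or received pI:pC, nor which promoter drives the transgene, and Mx1Cre acts in many cell types besides HSCs.

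ASXL1 is a chromatin-associated protein that binds the BAP1 deubiquitinase and is linked to Polycomb repression, and truncating ASXL1 mutations are frequent in myeloid malignancies. KDM6B (JMJD3) is a demethylase that removes the repressive mark H3K27me3, which Polycomb repressive complex 2 (PRC2) deposits on silent genes. Truncation or loss of ASXL1 is known to go with less H3K27me3 at target genes, among them Hoxa genes in myeloid cells.

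Between 14451522 and 23482563 reads were counted on genes per library. The LK markers Kit, Cd34, Mpo, Gata2, Myb and Flt3 were present in every genotype, with a summed level between 175092 and 245037 normalized counts per library. Defining markers of neutrophils and of B cells were also abundant in every genotype, at 922938 to 1408460 and 16287 to 46300.3 normalized counts. Pearson's r between libraries over the genes tested (a description of shared expression) lay between 0.944 and 0.988, with WT replicate 1 the least similar to the others. Y-linked transcripts were present in 0 of 3 WT, 2 of 3 Kdm6bΔ/+, 1 of 3 Asxl1Y588XTg and 3 of 3 Asxl1Y588XTg Kdm6bΔ/+ libraries, so that the sexes were not balanced over the genotypes. In bulk RNA, fewer cells of a type and less RNA per cell cannot be told apart. The values hold for bulk LK cells as a whole.

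Kdm6b itself departed little from additivity. Its normalized counts were 2142, 2372 and 1869 in WT, 1622, 1529 and 1346 in Kdm6bΔ/+, 2270.4, 2303 and 2187 in Asxl1Y588XTg and 1649, 1873 and 1909 in Asxl1Y588XTg Kdm6bΔ/+. All libraries with the deletion lay below all libraries without it on the same background, with the lowest counts in Kdm6bΔ/+. The log2 interaction at Kdm6b was 0.19 (SE 0.13, 95% interval −0.09 to 0.47), so that an interaction of more than 1.5-fold in either direction lies outside the interval. Reads on the overlapping gene Kdm6bos cannot be told apart from reads on Kdm6b where the strand was not used. At the Asxl1 gene, which overlaps 2500004C02Rik, the log2 interaction was −0.03 (SE 0.11, 95% interval −0.26 to 0.21). Whether reads of the transgene were counted on Asxl1 is not known from the sources used here. Kdm6a, the X-linked paralog of Kdm6b, had an interval of −0.79 to 0.63, which leaves a 1.5-fold departure within it. The normalized count of Kdm6a was 1233 to 1334 in the libraries with Y-linked transcripts and 2060 to 2256 in the others.

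With edgeR's quasi-likelihood test and Benjamini-Hochberg adjustment over all genes tested, 2 genes passed the threshold of an adjusted p under 0.05 and a fold above 1.5. Both, Tmem215 and Scarf1, lay below additivity (0.0126% of genes tested). Above additivity 0 genes passed (0%), also with limma-voom. DESeq2's Wald test of the same term called 61 genes below (0.385%) and 5 above (0.0316%), and limma-voom called 3 below. At an unadjusted p under 0.05, edgeR gave 747 genes below (4.72%) and 340 genes above (2.15%), and 1121 and 602 without WT replicate 3. All 61 and all 5 DESeq2 calls were among the 747 and the 340, with edgeR adjusted p-values up to 0.498 and 0.442. The genes named hereafter that edgeR did not call are given as values, not as changes.

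Tmem215 encodes a small transmembrane protein. Its normalized counts were 51.2, 51.3 and 44.9 in WT, 35.2, 40.7 and 55.0 in Kdm6bΔ/+, 308, 286 and 239 in Asxl1Y588XTg and 23.6, 29.0 and 56.7 in Asxl1Y588XTg Kdm6bΔ/+. The 3 Asxl1Y588XTg libraries stood alone above 9 libraries that overlapped one another. If the effects had multiplied, 246 normalized counts would have been expected in Asxl1Y588XTg Kdm6bΔ/+, against a mean of 36.4 ± 17.8 (SD, n = 3 mice). The log2 interaction was −2.77 (SE 0.41, 95% interval −3.64 to −1.91), with an edgeR adjusted p of 0.0431. The gene lies on chromosome 4 of mm10, from 40472180 to 40477168, with no other annotated gene over it.

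Scarf1, a scavenger receptor of endothelial and myeloid cells, had normalized counts of 199, 218 and 224 in WT, 251, 232 and 322 in Kdm6bΔ/+, 523, 533 and 497 in Asxl1Y588XTg and 190.3, 223 and 273 in Asxl1Y588XTg Kdm6bΔ/+. Again the 3 Asxl1Y588XTg libraries were the highest of the 12, with no overlap. The combined genotype overlapped both WT and Kdm6bΔ/+, while the Kdm6bΔ/+ libraries lay above those of WT. The multiplied effects gave an expectation of 651 and the observed mean of the combined genotype was 229 ± 41.8 (SD, n = 3 mice). The log2 interaction was −1.51 (SE 0.21, 95% interval −1.97 to −1.06), with an edgeR adjusted p of 0.0431. Scarf1 lies on chromosome 11, from 75513540 to 75526582, 6.10 Mb from Kdm6b. Among the 305 genes tested within 10 Mb of Kdm6b, 6.23% had an unadjusted p under 0.05 below additivity and 1.64% above, against 4.72% and 2.15% of all genes tested.

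Both calls were near the threshold in edgeR, while DESeq2's Wald test gave each an adjusted p of 9.95e-07. Their edgeR adjusted p rose to 0.0713 when the presence of Y-linked transcripts entered the model. The log2 interactions in that model were −2.77 for Tmem215 and −1.51 for Scarf1, as without the term. Y-linked transcripts were in 0 WT, 2 Kdm6bΔ/+, 1 Asxl1Y588XTg and 3 combined libraries, and these shares cancel in the interaction contrast. For a gene with a small sex effect the term could thus hardly move the value, so this agreement was set by the design. With 1 library left out, the edgeR adjusted p ranged from 0.00284 to 0.234 for Tmem215 and from 0.00521 to 0.234 for Scarf1. The log2 interaction then stayed between −3.24 and −2.53 for Tmem215 and between −1.67 and −1.34 for Scarf1. The count of genes called below additivity was 8 without Asxl1Y588XTg replicate 3, 6 without Asxl1Y588XTg Kdm6bΔ/+ replicate 3, 1 without Kdm6bΔ/+ replicate 2 and 0 without any other single library.

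The 3 further genes with the smallest p-values below additivity followed the same arrangement of libraries without passing edgeR's threshold. DESeq2's adjusted p was 9.22e-05 for Muc13 and Podxl and 0.000231 for Fhdc1. Muc13, a membrane mucin, had 797, 971 and 1082 in WT, 1083, 1034 and 1222 in Kdm6bΔ/+, 1986, 2174 and 1691 in Asxl1Y588XTg and 1046, 1233 and 1109 in Asxl1Y588XTg Kdm6bΔ/+. Its log2 interaction was −1.02 (SE 0.17, 95% interval −1.37 to −0.67), with an edgeR adjusted p of 0.0917. Podxl, a sialomucin related to CD34, had 57.6, 37.1 and 47.1 in WT, 57.8, 74.4 and 44.6 in Kdm6bΔ/+, 318, 517 and 194 in Asxl1Y588XTg and 56.1, 56.0 and 86.7 in Asxl1Y588XTg Kdm6bΔ/+. Its log2 interaction was −2.69 (SE 0.47, 95% interval −3.70 to −1.68), with an edgeR adjusted p of 0.14. In both genes the 3 Asxl1Y588XTg libraries lay above the other 9, and the Kdm6bΔ/+ and combined libraries overlapped. Fhdc1, a formin that bundles microtubules, had 64.0, 71.0 and 109 in WT, 91.7, 112 and 81.0 in Kdm6bΔ/+, 306, 256 and 242 in Asxl1Y588XTg and 99.6, 89.0 and 94.9 in Asxl1Y588XTg Kdm6bΔ/+, with a log2 interaction of −1.73 (SE 0.30, 95% interval −2.36 to −1.09).

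**Figure D1:**
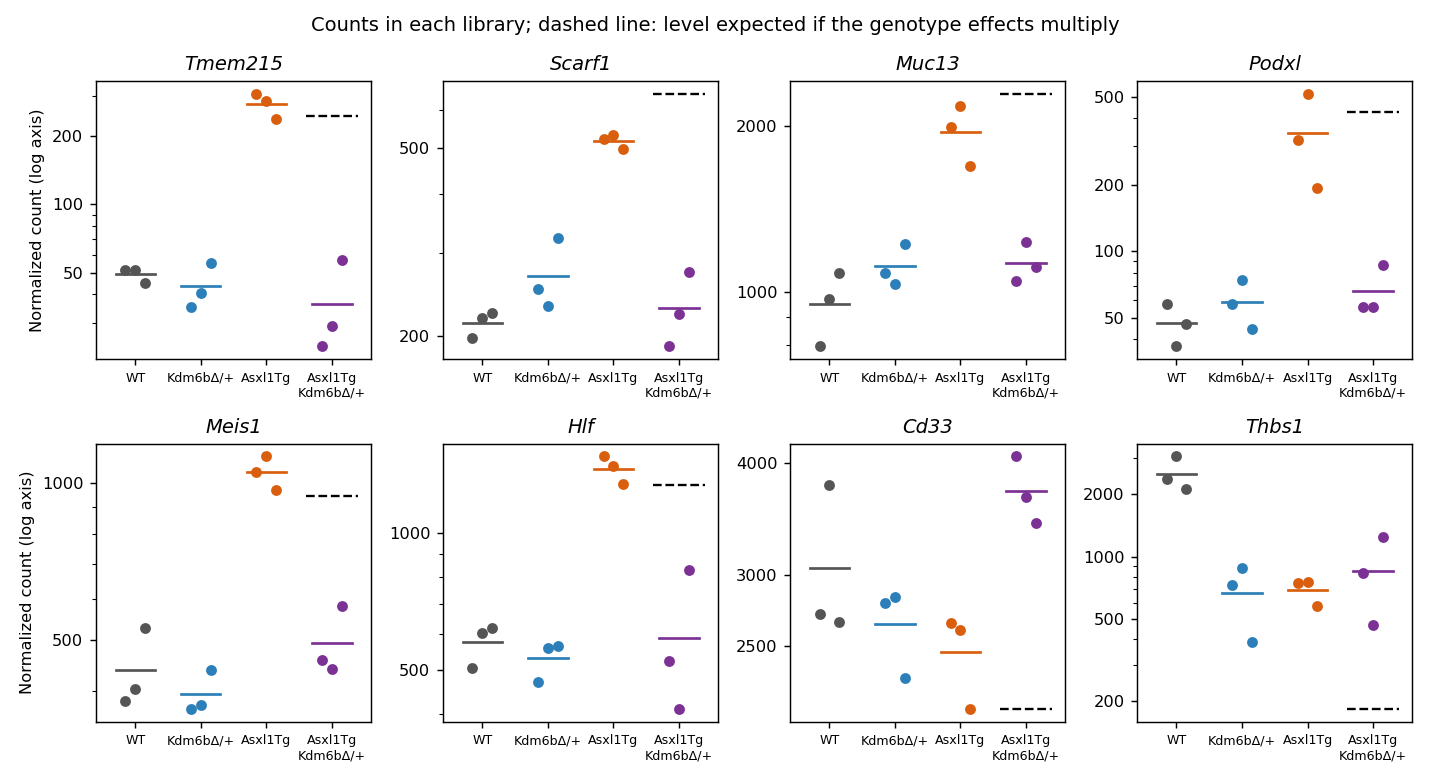
Normalized counts (log axis) of 8 genes in each of the 12 libraries, by genotype (Asxl1Tg, Asxl1Y588XTg); points are mice, solid lines genotype means, and the dashed line the mean expected in the combined genotype if both effects multiply. In Tmem215, Scarf1, Muc13, Podxl, Meis1 and Hlf the 3 Asxl1Y588XTg libraries are the highest and the combined genotype lies under the dashed line; in Cd33 and Thbs1 it lies over it.

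The arrangement seen at Tmem215 and Scarf1 was common among genes with small p-values below additivity. Over all genes tested, the 3 Asxl1Y588XTg libraries lay above the other 9 in 884 genes (5.59%) and below them in 96 (0.607%). The combined genotype stood apart below in 178 genes (1.12%) and above in 89 (0.562%). Kdm6bΔ/+ stood apart above in 101 (0.638%) and below in 114 (0.72%), and WT above in 61 (0.385%) and below in 59 (0.373%). Of the 747 genes with an unadjusted p under 0.05 below additivity, 341 (45.6%) had Asxl1Y588XTg apart above, 54 (7.23%) the combined genotype apart below, 25 WT apart below and 17 Kdm6bΔ/+ apart above. Of the 61 DESeq2 calls below additivity, 52 (85.2%) had Asxl1Y588XTg apart above. Position of the libraries and interaction were computed from the same counts, so these shares describe which genotype carries the departure and are not separate evidence for it.

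**Figure D2:**
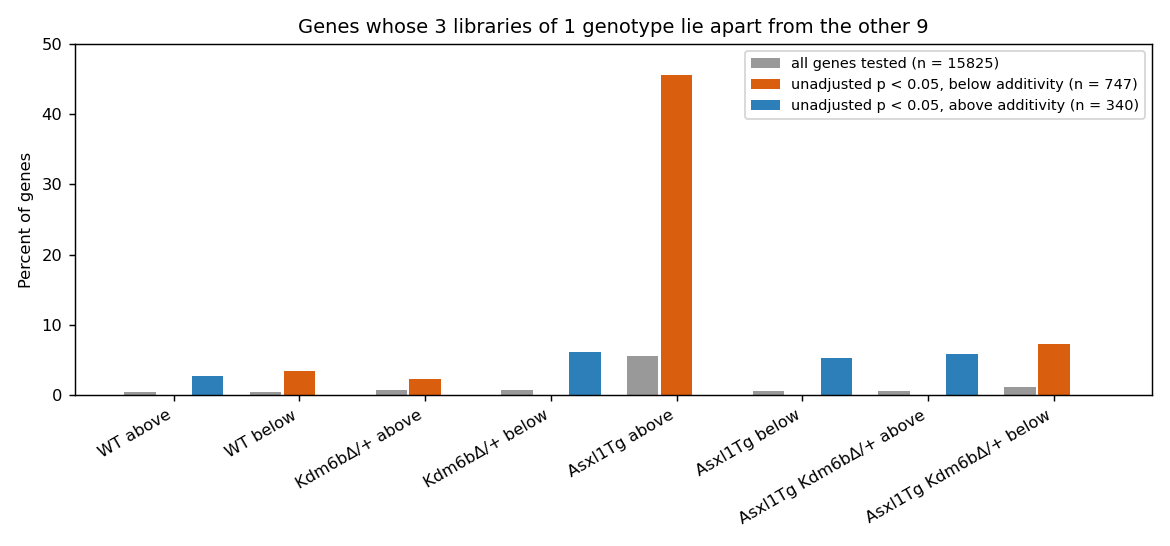
Percent of genes (vertical axis) whose 3 libraries of 1 genotype lie all above or all below the other 9 (horizontal axis; Asxl1Tg, Asxl1Y588XTg), for all 15825 genes tested (grey), the 747 genes at an unadjusted p under 0.05 below additivity (orange) and the 340 above (blue). The orange bar for Asxl1Y588XTg apart above reaches 45.6%, and no other bar passes 7.23%.

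The 747 genes had a median log2 interaction of −0.78. Their median log2 difference of Asxl1Y588XTg from WT was 0.62, and that of Asxl1Y588XTg Kdm6bΔ/+ from Kdm6bΔ/+ was −0.14. Seen from the other side, the Kdm6b deletion had a median log2 difference of 0.18 on the WT background and −0.55 on the Asxl1Y588XTg background. These differences share libraries and are given side by side as description. In the 340 genes above additivity the median log2 interaction was 1.06, with median differences of −0.45 and 0.46 for the transgene without and with the deletion and of −0.42 and 0.44 for the deletion without and with the transgene. In 80% of those 340 genes no genotype stood apart, against 41.5% of the 747 genes below and 14243 of all 15825 genes tested. The median normalized count of the 340 genes was 74.8, against 212 in the genes below and 267 over all genes tested. In both sets every gene had the same sign of departure when the 4 means were combined on the linear scale of normalized counts, and over all genes tested 97.4% did.

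**Figure D3:**
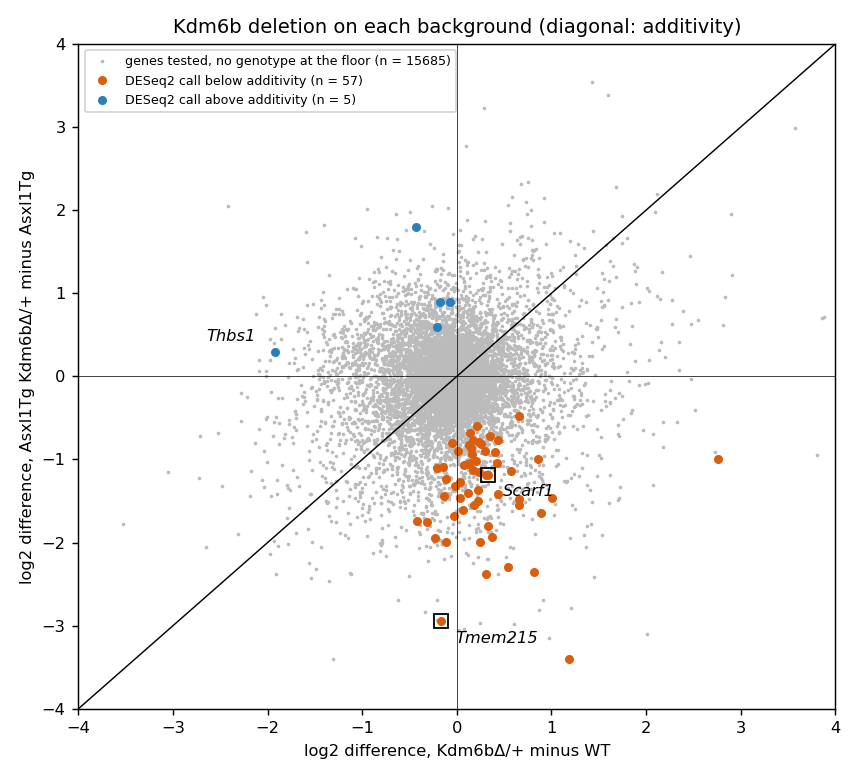
Fitted log2 difference made by the Kdm6b deletion on the WT background (horizontal axis) and on the Asxl1Y588XTg background (vertical axis; Asxl1Tg) for the 15685 genes tested with more than 3 counts in at least 1 library of every genotype, of which 5 lie outside the axes; the diagonal is additivity. The 57 DESeq2 calls below additivity plotted here lie under the diagonal and the 5 above lie over it, and the squares mark the 2 edgeR calls.

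How far a gene without a call could depart from additivity depended on its level. The median standard error of the log2 interaction was 0.241 over all genes, 0.718 in the 5932 genes with a mean normalized count under 100, 0.196 in the 5829 genes from 100 to 1000 and 0.121 in the 4064 genes over 1000. The 95% interval lay wholly within a 1.5-fold departure in either direction for 6556 genes (41.4%), which were 0.0843%, 49.5% and 90.3% of those 3 classes. For the remaining genes a departure of 1.5-fold in at least 1 direction was not excluded by the interval.

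HSC genes were among the lists with the most members below additivity. All 36 lists were chosen with earlier results of these data known, so their shares are description and not independent evidence. Of 25 tested genes for HSC surface proteins and niche receptors, 10 (40%) had an unadjusted p under 0.05 below additivity and 0 above, against 4.72% and 2.15% of all genes, and the median log2 interaction of the list was −0.43 against −0.02 over all genes. Of 26 HSC transcription factor genes 6 (23.1%) were below and 0 above, with a median of −0.36. No member of either list passed edgeR's threshold, and DESeq2 called Ly6a, Podxl, Tie1, Hlf and Meis1. With any 1 library left out, the number of surface genes below additivity was between 9 and 11. The number of transcription factor genes was 10 without WT replicate 3, 9 without Asxl1Y588XTg Kdm6bΔ/+ replicate 3 and 6 to 8 without any other library.

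Meis1, a homeobox factor that maintains HSCs and cooperates with Hox proteins in leukemia, had normalized counts of 383, 404 and 527 in WT, 369, 377 and 438 in Kdm6bΔ/+, 1051, 1125 and 968 in Asxl1Y588XTg and 459.6, 441 and 583 in Asxl1Y588XTg Kdm6bΔ/+. The 3 Asxl1Y588XTg libraries were above the rest. WT overlapped both genotypes with the deletion, while the combined genotype lay above Kdm6bΔ/+, by 441 against 438 at the nearest libraries. The log2 interaction was −0.94 (SE 0.19, 95% interval −1.34 to −0.53), with adjusted p-values of 0.183 from edgeR and 0.00746 from DESeq2. Hlf, a PAR bZIP factor of the most immature HSCs, had 505, 604 and 619 in WT, 470.0, 560.2 and 565 in Kdm6bΔ/+, 1471, 1398 and 1277 in Asxl1Y588XTg and 523, 411 and 827 in Asxl1Y588XTg Kdm6bΔ/+. Its log2 interaction was −1.12 (SE 0.28, 95% interval −1.73 to −0.52), with adjusted p-values of 0.328 from edgeR and 0.0191 from DESeq2, and the 3 Asxl1Y588XTg libraries again lay above the other 9. Meis1 overlaps several annotated genes, among them Gm16140 and Gm37818.

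Further HSC regulators had negative values without a call by edgeR or DESeq2. For Mecom (Evi1) and Mycn the log2 interaction was −0.97 (SE 0.34) and −0.97 (SE 0.35), and in both genes the combined genotype kept a higher mean than Kdm6bΔ/+, by 1.02 and 1.02 on the log2 scale. Prdm16 had a log2 interaction of −1.02 (SE 0.48, 95% interval −2.05 to 0.02) and Gata2, a factor of HSCs and early progenitors, one of −0.52 (SE 0.24, 95% interval −1.05 to 0.01). In these 4 genes the 3 Asxl1Y588XTg libraries lay above all others, and in Gata2 the deletion also went with lower values on the WT background, at −0.52 on the log2 scale. At the other end of the list Gfi1b had a log2 interaction of 0.18 with an interval of −1.38 to 1.73.

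Hoxb5, a homeobox gene of long-term HSCs, was near the detection limit. Its raw counts were 0, 1 and 3 in WT, 0, 7 and 2 in Kdm6bΔ/+, 25, 29 and 27 in Asxl1Y588XTg and 12, 4 and 13 in Asxl1Y588XTg Kdm6bΔ/+. Since all WT libraries had 3 counts or fewer, no fold is given. The 3 Asxl1Y588XTg libraries were the highest, and Hoxb5 overlaps Hoxb5os. The 5 Hoxb genes tested had fitted log2 interactions below 0, with a median of −1.68. Only 1 Hoxb gene had a mean count of at least 50, and its value in the fit with that filter was −0.46. The median was −0.44 without Kdm6bΔ/+ replicate 2 and −2.31 without Asxl1Y588XTg Kdm6bΔ/+ replicate 3, and without Kdm6bΔ/+ replicate 2 or replicate 3, 5 of 6 tested were below 0. With all libraries Hoxb3 was nearest to 0 at −0.30 (interval −1.80 to 1.19), and 0 of them reached an unadjusted p under 0.05 in either direction. The 6 Hoxa genes tested ranged from Hoxa10 at −0.66 (SE 0.64) to Hoxa7 at 0.25 (SE 0.34), also with 0 at an unadjusted p under 0.05.

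Among the surface genes, Ly6a (Sca-1), a marker of mouse HSCs that interferon also induces, had 22.9, 75.4 and 67.4 in WT, 86.7, 112 and 104 in Kdm6bΔ/+, 442, 274 and 180.3 in Asxl1Y588XTg and 93.7, 94.0 and 99.0 in Asxl1Y588XTg Kdm6bΔ/+. The log2 interaction of Ly6a was −2.53 (SE 0.52, 95% interval −3.65 to −1.40), with adjusted p-values of 0.192 from edgeR and 0.000999 from DESeq2. Tie1, an angiopoietin pathway receptor of HSCs and endothelium, had 303, 248 and 369 in WT, 479, 345 and 399 in Kdm6bΔ/+, 758, 896 and 684 in Asxl1Y588XTg and 354, 371 and 524 in Asxl1Y588XTg Kdm6bΔ/+. For Tie1 the log2 interaction was −1.31 (SE 0.25, 95% interval −1.86 to −0.77), and that of Tek (Tie2), the angiopoietin receptor itself, was −1.31 (SE 0.36, 95% interval −2.08 to −0.55). Angpt1, the ligand of Tek, had a log2 interaction of −0.93 (SE 0.29, 95% interval −1.56 to −0.30). In all 4 genes the 3 Asxl1Y588XTg libraries were higher than the other 9. Procr (EPCR) at −2.39 (SE 0.69) and Fgd5 at −1.21 (SE 0.39) were arranged likewise. Of the 21 cytokine receptors tested, 2 (9.52%) were below additivity at an unadjusted p under 0.05 and 0 above, against 4.72% and 2.15% of all genes. Il7r was the most positive cytokine receptor at 0.99 (interval −0.25 to 2.24). The most positive fitted value of the surface list was that of Clec14a, whose raw counts were 1, 2 and 4 in WT, 0, 1 and 1 in Kdm6bΔ/+, 22, 19 and 11 in Asxl1Y588XTg and 46, 9 and 5 in Asxl1Y588XTg Kdm6bΔ/+, with Kdm6bΔ/+ at 3 counts or fewer in every library.

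Markers of other cells moved in part with these groups. The summed level of 5 megakaryocyte markers was 887 to 1641 in WT, 1049.6 to 1227 in Kdm6bΔ/+, 2198 to 5979 in Asxl1Y588XTg and 1718 to 2457 in the combined genotype, and that of 6 endothelial and stromal markers was 1450.1 to 1764, 1455 to 2487, 1834 to 2168 and 1919 to 3376. Their part in the HSC and endothelial values was not tested. Over all genes tested, 4.72% were below additivity and 2.15% above at an unadjusted p under 0.05. In the megakaryocyte and platelet list, 3 of 26 genes (11.5%) were below at that p (Selp and Mmrn1 among them) and 1 (3.85%) above (Thbs1). Selp, P-selectin, had a log2 interaction of −0.86 (SE 0.24, 95% interval −1.37 to −0.35). In the endothelial and stromal list 4 of 27 (14.8%) were below (Tie1, Tek, Esam and Ramp2) and 0 above. The raw counts of Ramp2 were 0, 0 and 0 in WT, 3, 1 and 2 in Kdm6bΔ/+, 49, 37 and 16 in Asxl1Y588XTg and 10, 0 and 16 in Asxl1Y588XTg Kdm6bΔ/+, so no fold is given. In a list of 13 leukemia stem cell score genes, 3 (23.1%) were below (Adgrg1, Smim24 and Mmrn1) and 0 above. The list median was −0.19, with a range from Cpxm1 at −0.97 (SE 0.74) to Dpysl3 at 0.88 (SE 1.46).

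Collagen, laminin and basement membrane genes had 5 of 29 members below additivity at an unadjusted p under 0.05 (17.2%) and 0 above. Over all genes tested the shares were 4.72% and 2.15%. The median of the list was −0.62. With 1 library left out, 4 to 7 were below and the median was between −0.81 and −0.35. Col16a1, a fibril-associated collagen, had 40.3, 81.9 and 81.3 in WT, 94.2, 74.4 and 85.1 in Kdm6bΔ/+, 734, 604 and 449 in Asxl1Y588XTg and 189.6, 120.0 and 202 in Asxl1Y588XTg Kdm6bΔ/+. On the log2 scale the interaction of Col16a1 was −2.13 (SE 0.38, 95% interval −2.94 to −1.31), with adjusted p-values of 0.14 from edgeR and 9.22e-05 from DESeq2. The 3 Asxl1Y588XTg libraries stood above all others, and all 3 libraries of the combined genotype stood above those of WT and Kdm6bΔ/+. Col18a1, the source of endostatin, had a log2 interaction of −1.90 (SE 0.54, 95% interval −3.06 to −0.74), and Col27a1 the most positive of the list, 0.98 (interval −0.45 to 2.40).

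Thbs1 (thrombospondin-1), a matrix glycoprotein of platelets and stroma that activates latent TGF-beta, lay above additivity in the DESeq2 test. Its normalized counts were 2368, 3050.0 and 2116 in WT, 726, 881 and 386 in Kdm6bΔ/+, 746, 755 and 579 in Asxl1Y588XTg and 835, 469.9 and 1241 in Asxl1Y588XTg Kdm6bΔ/+. The 3 WT libraries lay above the other 9, and the other 3 genotypes overlapped. The transgene alone and the deletion alone differed from WT by −1.86 and −1.92 on the log2 scale, so multiplied effects gave an expectation of 184 against the mean of 849 ± 386 (SD, n = 3 mice) in the combined genotype. The log2 interaction was 2.21 (SE 0.54, 95% interval 0.98 to 3.44), with adjusted p-values of 0.402 from edgeR and 0.0256 from DESeq2. Thbs1 overlaps Gm29233. In the TGF-beta and thrombospondin list 1 of 19 genes (5.26%) was below additivity at an unadjusted p under 0.05 and 2 (10.5%) above. Over all genes tested the shares were 4.72% and 2.15%. Tgfb3 was the most negative at −1.43 (SE 0.75), while Ltbp3, a TGF-beta binding protein that DESeq2 called below, was at −1.22 (SE 0.26).

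Interferon-stimulated genes had the highest share below additivity of the 36 lists. Of 37 tested genes 15 (40.5%) had an unadjusted p under 0.05 below additivity and 0 above, against 4.72% and 2.15% of all genes. All 37 had a log2 interaction below 0, with a median of −0.85. Their median log2 differences were 0.40 and −0.26 for the transgene without and with the deletion, and 0.07 and −0.79 for the deletion without and with the transgene. The genes are transcribed after type I interferon through the ISGF3 complex, which binds a repeated GAAA element (ISRE). In the RefSeq promoters of mouse build GRCm38.p6, which run from 250 bases before to 50 bases after the gene start, GAAANNGAAA or its reverse complement TTTCNNTTTC (both strands searched, overlapping matches counted) was found in 16 of the 27 listed genes that have an entry (59.3%), against 428 of 11024 tested genes (3.88%). A match describes the sequence, not a bound site. Since such genes are known for this element, its excess over all genes follows from the list and does not bear on the interaction. Of the 13 listed genes with an entry and an unadjusted p under 0.05, 8 (61.5%) had a match, near the 59.3% of the whole list. The promoters of 4 genes taken from those with a match are shown, with the matches in capitals.
Isg15, chr4:156200769-156201068, minus strand: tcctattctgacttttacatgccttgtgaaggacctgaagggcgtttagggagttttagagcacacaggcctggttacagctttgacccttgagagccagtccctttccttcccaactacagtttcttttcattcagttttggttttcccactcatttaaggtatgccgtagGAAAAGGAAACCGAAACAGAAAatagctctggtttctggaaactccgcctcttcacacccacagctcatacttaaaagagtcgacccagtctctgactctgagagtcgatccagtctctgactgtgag
Oas1a, chr5:120907476-120907775, minus strand: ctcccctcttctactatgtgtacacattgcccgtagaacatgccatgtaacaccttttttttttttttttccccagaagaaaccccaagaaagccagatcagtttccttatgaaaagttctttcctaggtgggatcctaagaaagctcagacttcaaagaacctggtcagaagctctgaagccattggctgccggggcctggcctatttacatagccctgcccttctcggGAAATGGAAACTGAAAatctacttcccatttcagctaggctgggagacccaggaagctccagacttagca
Bst2, chr8:71537423-71537722, minus strand: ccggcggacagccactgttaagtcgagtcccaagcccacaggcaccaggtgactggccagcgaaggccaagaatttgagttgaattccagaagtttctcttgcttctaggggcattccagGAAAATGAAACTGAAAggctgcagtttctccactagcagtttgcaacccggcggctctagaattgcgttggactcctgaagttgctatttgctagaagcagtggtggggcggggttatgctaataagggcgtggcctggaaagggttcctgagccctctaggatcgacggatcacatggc
Ifit1, chr19:34640639-34640938, plus strand: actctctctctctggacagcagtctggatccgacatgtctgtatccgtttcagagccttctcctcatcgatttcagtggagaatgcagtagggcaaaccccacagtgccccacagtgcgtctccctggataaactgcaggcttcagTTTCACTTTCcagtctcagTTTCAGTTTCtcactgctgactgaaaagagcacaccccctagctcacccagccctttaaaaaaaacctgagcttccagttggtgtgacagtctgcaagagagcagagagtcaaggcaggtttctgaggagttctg

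The values behind that list rested in large part on 1 library. In 32 of the 37 genes Asxl1Y588XTg replicate 1 was the highest of the 12 libraries, and in 20 Asxl1Y588XTg Kdm6bΔ/+ replicate 1 was the lowest. Oas2, an oligoadenylate synthetase and the most negative member, had 92.4, 89.6 and 79.2 in WT, 66.6, 113 and 104 in Kdm6bΔ/+, 287, 40.3 and 129.7 in Asxl1Y588XTg and 12.5, 44.0 and 48.5 in Asxl1Y588XTg Kdm6bΔ/+. The log2 interaction of Oas2 was −2.27 (SE 0.87, 95% interval −4.18 to −0.35), and Asxl1Y588XTg replicate 2 was below all WT libraries. Isg15, a ubiquitin-like modifier, had 12.8, 35.0 and 35.3 in WT, 35.2, 57.5 and 44.6 in Kdm6bΔ/+, 92.5, 42.3 and 53.7 in Asxl1Y588XTg and 14.8, 41.0 and 21.7 in Asxl1Y588XTg Kdm6bΔ/+, with a log2 interaction of −2.03 (SE 0.65, 95% interval −3.41 to −0.66). Oas1a had 263, 154 and 204 in WT, 163, 213 and 239.8 in Kdm6bΔ/+, 439.6, 182 and 194 in Asxl1Y588XTg and 56.8, 112 and 98.0 in Asxl1Y588XTg Kdm6bΔ/+, with a log2 interaction of −1.61 (SE 0.50, 95% interval −2.70 to −0.53). In Oas1a the 3 libraries of the combined genotype lay below the other 9, while the Asxl1Y588XTg libraries overlapped WT apart from replicate 1.

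Without Asxl1Y588XTg replicate 1, 6 of 37 interferon-stimulated genes were below additivity at an unadjusted p under 0.05, 34 had a negative value, and the median was −0.35. With 37 to 39 members tested, the number below was 9 without WT replicate 1, 7 without Kdm6bΔ/+ replicate 3 and 8 without Asxl1Y588XTg Kdm6bΔ/+ replicate 1, and it was between 11 and 21 without any other single library. Bst2 (tetherin) had 358, 327 and 336 in WT, 328, 312 and 423 in Kdm6bΔ/+, 581, 344 and 413 in Asxl1Y588XTg and 299, 281 and 295 in Asxl1Y588XTg Kdm6bΔ/+ and a log2 interaction of −0.67 (SE 0.24, 95% interval −1.17 to −0.17). Ifi44 and Rtp4 had log2 interactions of −1.92 (SE 0.53) and −2.03 (SE 0.64), with the highest count of each in Asxl1Y588XTg replicate 1. At the other end of the list was Ifi203 at −0.08 (interval −0.71 to 0.55). DESeq2 called 0 genes of this list in either direction, and limma-voom gave 14 genes of the list below additivity at an unadjusted p under 0.05. Outside the list, DESeq2 called Ifitm1, Ifitm3 and Oas1g, an oligoadenylate synthetase gene, below additivity. The edgeR log2 interaction of Oas1g was −4.58 (SE 1.16), with raw counts of 0, 2 and 11 in Asxl1Y588XTg Kdm6bΔ/+.

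**Figure D4:**
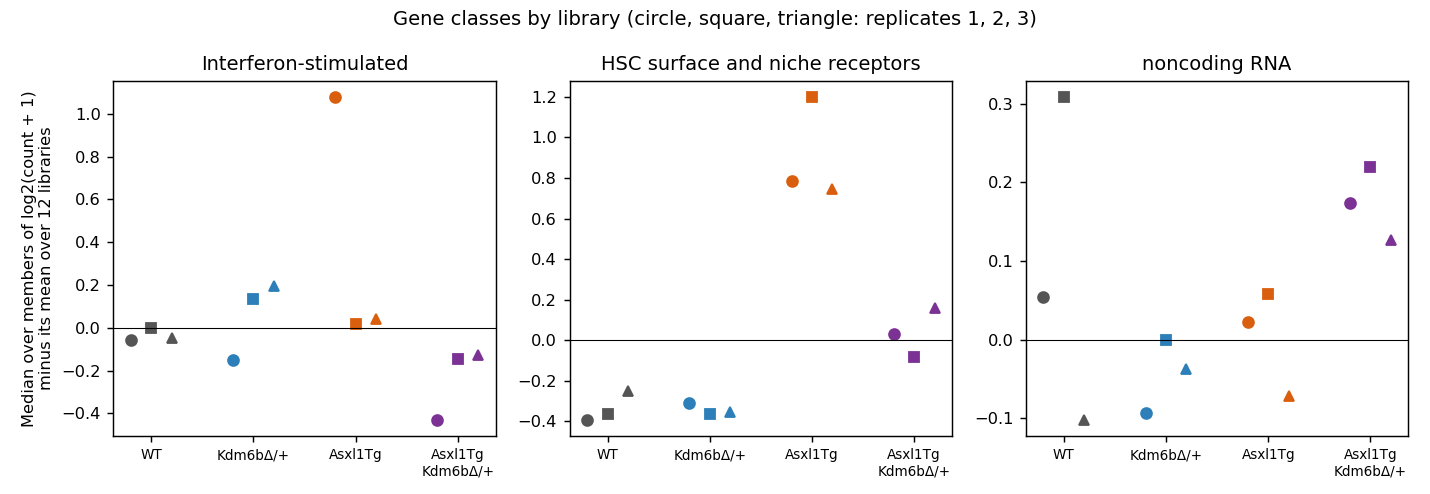
For 3 gene classes, the median over members of log2(normalized count + 1) minus its mean over the 12 libraries (vertical axis), by genotype (Asxl1Tg, Asxl1Y588XTg); the symbols are replicates 1, 2 and 3. For interferon-stimulated genes Asxl1Y588XTg replicate 1 stands at 1.08 while replicates 2 and 3 are at 0.02 and 0.04, for HSC surface genes all 3 Asxl1Y588XTg libraries are between 0.74 and 1.20, and for noncoding RNA the combined genotype is at 0.13 to 0.22, with WT replicate 2 higher at 0.31.

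Genes of cytokine signaling outside the interferon list were named after their values were seen, from the DESeq2 calls. Socs3, the feedback inhibitor of STAT3 signaling, had 353, 228 and 271 in WT, 269, 155 and 215 in Kdm6bΔ/+, 1036, 732 and 757 in Asxl1Y588XTg and 269, 216 and 273 in Asxl1Y588XTg Kdm6bΔ/+. For Socs3 the log2 interaction was −1.31 (SE 0.29, 95% interval −1.94 to −0.68), and the 3 Asxl1Y588XTg libraries were above the other 9. Jak3, the kinase of common gamma chain receptors, had 948, 1109 and 976 in WT, 1263, 1015 and 1239.6 in Kdm6bΔ/+, 1449.6, 1239.8 and 1425 in Asxl1Y588XTg and 769, 975 and 982 in Asxl1Y588XTg Kdm6bΔ/+ and a log2 interaction of −0.81 (SE 0.16, 95% interval −1.15 to −0.47), with Asxl1Y588XTg overlapping Kdm6bΔ/+ replicate 1. Pim1, a serine kinase induced by STAT5, had a log2 interaction of −0.75 (SE 0.17, 95% interval −1.12 to −0.38), with the combined genotype below all other libraries. Ifitm1 and Ifitm3, interferon-inducible membrane proteins, were at −1.71 (SE 0.36) and −0.94 (SE 0.24), with the 3 Asxl1Y588XTg libraries apart above in both, replicates 2 and 3 included. DESeq2's adjusted p was 0.0106 for Socs3, 0.00732 for Jak3, 0.0322 for Pim1 and 0.00146 for Ifitm1.

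Further DESeq2 calls below additivity were Vldlr, a lipoprotein and reelin receptor, Clu (clusterin, a secreted chaperone) and Spns2, a sphingosine-1-phosphate exporter. Vldlr had 97.0, 117 and 104 in WT, 94.2, 99.2 and 182 in Kdm6bΔ/+, 747, 676 and 576 in Asxl1Y588XTg and 108, 125 and 274 in Asxl1Y588XTg Kdm6bΔ/+ and a log2 interaction of −2.24 (SE 0.47, 95% interval −3.27 to −1.20). Clu had 81.4, 69.9 and 128 in WT, 112, 129 and 136 in Kdm6bΔ/+, 563, 758 and 497 in Asxl1Y588XTg and 201, 172 and 308 in Asxl1Y588XTg Kdm6bΔ/+ and a log2 interaction of −1.85 (SE 0.35, 95% interval −2.60 to −1.10). Spns2 was at −0.89 (SE 0.19). In all 3 the Asxl1Y588XTg libraries were the highest, and for Clu the combined genotype stayed above WT in every library.

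The 3 members of the B cell and plasma cell list below additivity at an unadjusted p under 0.05 were immunoglobulin heavy chain genes of switched isotypes, Ighg1, Ighg2b and Ighg2c. Ighg2b had 493, 760.3 and 597 in WT, 1005, 753 and 932 in Kdm6bΔ/+, 5163, 4158 and 2792 in Asxl1Y588XTg and 457, 1179.9 and 854 in Asxl1Y588XTg Kdm6bΔ/+. On the log2 scale the interaction of Ighg2b was −2.83 (SE 0.50, 95% interval −3.98 to −1.68), with adjusted p-values of 0.204 from edgeR and 4.91e-05 from DESeq2, and limma-voom also called it. The 3 Asxl1Y588XTg libraries were the highest. Ighg1 had 85.1, 51.3 and 139 in WT, 71.6, 274 and 193 in Kdm6bΔ/+, 1953, 40.3 and 430.5 in Asxl1Y588XTg and 33.2, 148 and 97.0 in Asxl1Y588XTg Kdm6bΔ/+, so that its log2 interaction of −4.13 (interval −8.01 to −0.25) went with high counts in Asxl1Y588XTg replicates 1 and 3 and not in replicate 2. The 3 genes were 9.68% of the 31 tested, and 1 gene (3.23%) was above, against 4.72% and 2.15% of all genes tested. The median of the 31 was 0.51. The gene above was Rag2, of the V(D)J recombinase, at 1.80 (SE 0.76). The summed level of 11 B and plasma cell markers was 17453 to 26239 in WT, 25343 to 46300.3 in Kdm6bΔ/+, 16287 to 36588 in Asxl1Y588XTg and 27664 to 33008 in the combined genotype. Its part in these values was not tested.

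Above additivity, the 5 smallest edgeR p-values were sought among genes averaging at least 50 normalized counts and without a predicted-gene name. These genes were Cd33, Cnn3, Aspm, Cpa6 and Eml5. The predicted gene Gm38575, averaging 40.5 normalized counts, had a smaller unadjusted edgeR p of 0.00065, at a log2 interaction of 2.23. Cd33, a sialic acid binding receptor of myeloid cells, had 2715, 3782 and 2659 in WT, 2791, 2836 and 2299 in Kdm6bΔ/+, 2648, 2600.4 and 2124 in Asxl1Y588XTg and 4071, 3669.6 and 3428 in Asxl1Y588XTg Kdm6bΔ/+. The log2 interaction of Cd33 was 0.81 (SE 0.19, 95% interval 0.40 to 1.22), with adjusted p-values of 0.256 from edgeR and 0.0154 from DESeq2, and the combined genotype overlapped only WT replicate 2. Cnn3, an actin-binding calponin, had 245, 357 and 318 in WT, 265, 291 and 319.8 in Kdm6bΔ/+, 201, 178 and 131 in Asxl1Y588XTg and 349, 284 and 318 in Asxl1Y588XTg Kdm6bΔ/+. The log2 interaction of Cnn3 was 0.97 (SE 0.24, 95% interval 0.45 to 1.49), and the 3 Asxl1Y588XTg libraries were the lowest of the 12. Aspm, a mitotic spindle protein, was at 0.39 (SE 0.10), also with Asxl1Y588XTg lowest. Cpa6, a carboxypeptidase, was at 1.52 (SE 0.41) and Eml5, a microtubule-associated protein, at 0.70 (SE 0.20). Cnn3, Cpa6 and Eml5 overlap other annotated genes.

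Noncoding RNA genes had more members above additivity than below, and protein-coding genes had more below than above. Of 2088 noncoding genes tested, 114 (5.46%) were above additivity at an unadjusted p under 0.05 and 17 (0.814%) below, with a median log2 interaction of 0.34. Of 12777 protein-coding genes 1.56% were above and 5.46% below, with a median of −0.04. At a mean normalized count under 100 the shares above were 5.29% of 1911 noncoding and 1.92% of 3284 protein-coding genes, and between 100 and 1000 they were 6.54% of 153 and 1.34% of 5529. The share above was 9.76% of 717 genes of the annotation class TEC (unspliced models awaiting experimental support), 10.7% of 75 sense intronic genes, 3.05% of 524 antisense genes and 2.52% of 357 lincRNA genes, and 0 of 53 snoRNA genes were above. Sense intronic and antisense genes share their position with other genes, so their reads are uncertain.

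In noncoding genes the median log2 difference was −0.13 and 0.23 for the transgene without and with the deletion, and −0.15 and 0.17 for the deletion without and with the transgene. Noncoding genes took 2.55% to 3.61% of counts in WT, 2.64% to 3.48% in Kdm6bΔ/+, 2.33% to 3.41% in Asxl1Y588XTg and 3.52% to 4.53% in the combined genotype, which overlapped WT. The mitochondrial ribosomal RNA mt-Rnr1 had 3138, 2559.5 and 2952 in WT, 2644, 3068 and 1963 in Kdm6bΔ/+, 2826, 3161 and 1889 in Asxl1Y588XTg and 4267, 4617 and 5805 in Asxl1Y588XTg Kdm6bΔ/+, with the combined genotype above all other libraries. The log2 interaction of mt-Rnr1 was 1.07 (SE 0.30, 95% interval 0.41 to 1.73), with adjusted p-values of 0.442 from edgeR and 0.0127 from DESeq2. mt-Rnr2 was at 0.98 (SE 0.29). The study's methods name a ribosomal RNA removal step, and the part of that step in the noncoding values was not tested. The number of noncoding genes above was 211 without WT replicate 3, 73 without Asxl1Y588XTg replicate 3 and 74 without Asxl1Y588XTg Kdm6bΔ/+ replicate 2.

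Lists of the chromatin machinery had 0 to 2 members at an unadjusted p under 0.05 in each direction. The lists were short, and over all genes tested 4.72% were below additivity and 2.15% above. In the lists of JmjC demethylases (16 tested), DNA methylation enzymes (8) and MLL and COMPASS subunits (14), 0 genes had an unadjusted p under 0.05, and the medians were 0.06, −0.02 and 0.04. The demethylases ranged from Kdm5c at −0.19 (SE 0.19) to Kdm3a at 0.23 (SE 0.12), the methylation enzymes from Dnmt3b at −0.18 (SE 0.17) to Dnmt3l at 0.56 (SE 0.48), and the MLL group from Wdr5 at −0.20 (SE 0.11) to Kmt2d at 0.27 (SE 0.15). Of 12 PRC2 subunit genes, Epop, an elongin-binding cofactor, was alone below at −1.18 (SE 0.36, 95% interval −1.95 to −0.42), and Phf1 the most positive at 0.28 (SE 0.34). In the list of PRC1 and BAP1 complex genes 1 of 24 was below (Cbx6) and 2 above (Asxl2 and Phc3), with extremes at Pcgf1, −0.70 (SE 0.35), and Cbx8, 0.36 (SE 0.22).

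Of 79 developmental regulators known as PRC2 targets only 9 had enough counts to be tested, and 0 of them had an unadjusted p under 0.05. They ran from Bmp4 at −2.80 (interval −6.14 to 0.53) to Bmp2 at 1.31 (interval −1.21 to 3.84). Of 16 imprinted genes 2 (12.5%) were below and 1 (6.25%) above, against 4.72% and 2.15% of all genes tested. Rian, a maternally expressed noncoding RNA, had raw counts of 0, 6 and 1 in WT, 5, 2 and 2 in Kdm6bΔ/+, 28, 23 and 42 in Asxl1Y588XTg and 3, 4 and 4 in Asxl1Y588XTg Kdm6bΔ/+, and Ascl2 was at 0.83 (SE 0.92). Cdkn1c (p57), an imprinted cyclin-dependent kinase inhibitor of quiescent HSCs, had 11.9, 9.83 and 13.9 in WT, 17.6, 12.9 and 16.6 in Kdm6bΔ/+, 51.3, 80.5 and 56.7 in Asxl1Y588XTg and 41.3, 27 and 39.2 in Asxl1Y588XTg Kdm6bΔ/+, with a log2 interaction of −1.20 (SE 0.49, 95% interval −2.24 to −0.15). It was the 1 member below of the 6 cyclin-dependent kinase inhibitors tested, and Cdkn1b was the most positive at 0.11 (SE 0.14).

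Proliferation and housekeeping groups had medians within 0.16 of additivity on the log2 scale. Their counts at an unadjusted p under 0.05 stand beside 4.72% below and 2.15% above over all genes tested. Of 50 cell cycle genes 2 were below and 0 above, with a median of −0.01. Pttg1 (securin) was the most negative at −0.92 (SE 0.35, 95% interval −1.67 to −0.17), with normalized counts of 65.0, 149 and 158 in WT, 565, 428 and 673 in Kdm6bΔ/+, 159.9, 149.9 and 161 in Asxl1Y588XTg and 361, 380.0 and 385 in Asxl1Y588XTg Kdm6bΔ/+. The Kdm6bΔ/+ libraries were the highest in Pttg1, and both genotypes with the deletion were above both without it. Cenpf was the most positive of the list at 0.24 (SE 0.17). Of 78 cytosolic ribosomal protein genes 1 was below (median −0.06, with Rpl5 the most positive at 0.58, SE 0.35). Of 72 nuclear genes of oxidative phosphorylation 2 were below (median −0.07, from Cox7c at −0.39, SE 0.38, to Atp5l at 0.73, SE 0.48). None of the 7 mitochondrial genes had an unadjusted p under 0.05, and they ran from mt-Cytb at −0.03 to mt-Nd5 at 0.22.

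Stress and inflammation lists were mixed. Over all genes tested, 4.72% were below additivity and 2.15% above at an unadjusted p under 0.05. Of 23 immediate-early genes 2 were below, with Nr4a2, an orphan nuclear receptor, at −0.85 (SE 0.27, 95% interval −1.43 to −0.28) and Klf2 as the most positive at 0.26 (interval −0.88 to 1.39). Of 21 NF-kB and inflammatory genes 2 were below while the list median was 0.16, from Bcl3 at −0.98 (SE 0.36) to Cxcl10 at 0.66 (SE 0.52). In the p53 and DNA damage list 1 of 24 was below, and the extremes were Tnfrsf10b at −1.69 (SE 1.06) and Phlda3 at 0.67 (SE 0.56). Of 34 ABC transporters 3 were below and 2 above, from Abca4 at −1.91 (SE 0.63) to Abcb6 at 1.63 (SE 0.67).

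The lineage lists given next had 0 or 1 member at an unadjusted p under 0.05 in each direction. Over all genes tested the shares were 4.72% below and 2.15% above. Of 24 neutrophil granule genes 0 were at an unadjusted p under 0.05 (median 0.11, from Prtn3 at −0.34, SE 0.19, to Mmp8 at 0.65, SE 0.47). The 34 erythroid and heme genes likewise gave 0 (median 0.30, from Hba-a2 at −0.62, SE 0.58, to Rhd at 0.65, SE 0.56). Of 18 myeloid transcription factors only Klf4 was below, at −0.45 (SE 0.19, 95% interval −0.86 to −0.05). Monocyte, macrophage and dendritic genes had 1 of 29 below, from Fcgr1 at −0.86 (SE 0.91) to Cd209a at 1.74 (SE 0.99). MHC class II genes gave 0 of 11, from Ciita at −0.65 (SE 0.61) to H2-Eb2 at 0.62 (SE 1.06).

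Mast cell and basophil genes had 1 of 16 below, from Gzmb at −0.79 (SE 0.58) to Il1rl1 at 0.38 (SE 0.31). T and NK cell genes had 0 of 29 below and 1 above, Cd5 at 1.24 (SE 0.52), and Trac was the most negative at −1.82 (SE 1.07). The sex-linked transcripts Xist, Ddx3y and Eif2s3y were read as the sex of the mice, with an interval of −15.10 to 1.72 for the interaction of Xist, and Tsix was at 0.78 (SE 1.03). The erythroid markers were 6844 to 8934 normalized counts in WT, 3647 to 8114 in Kdm6bΔ/+, 4522 to 10974 in Asxl1Y588XTg and 3809 to 4849 in the combined genotype.

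**Figure D5:**
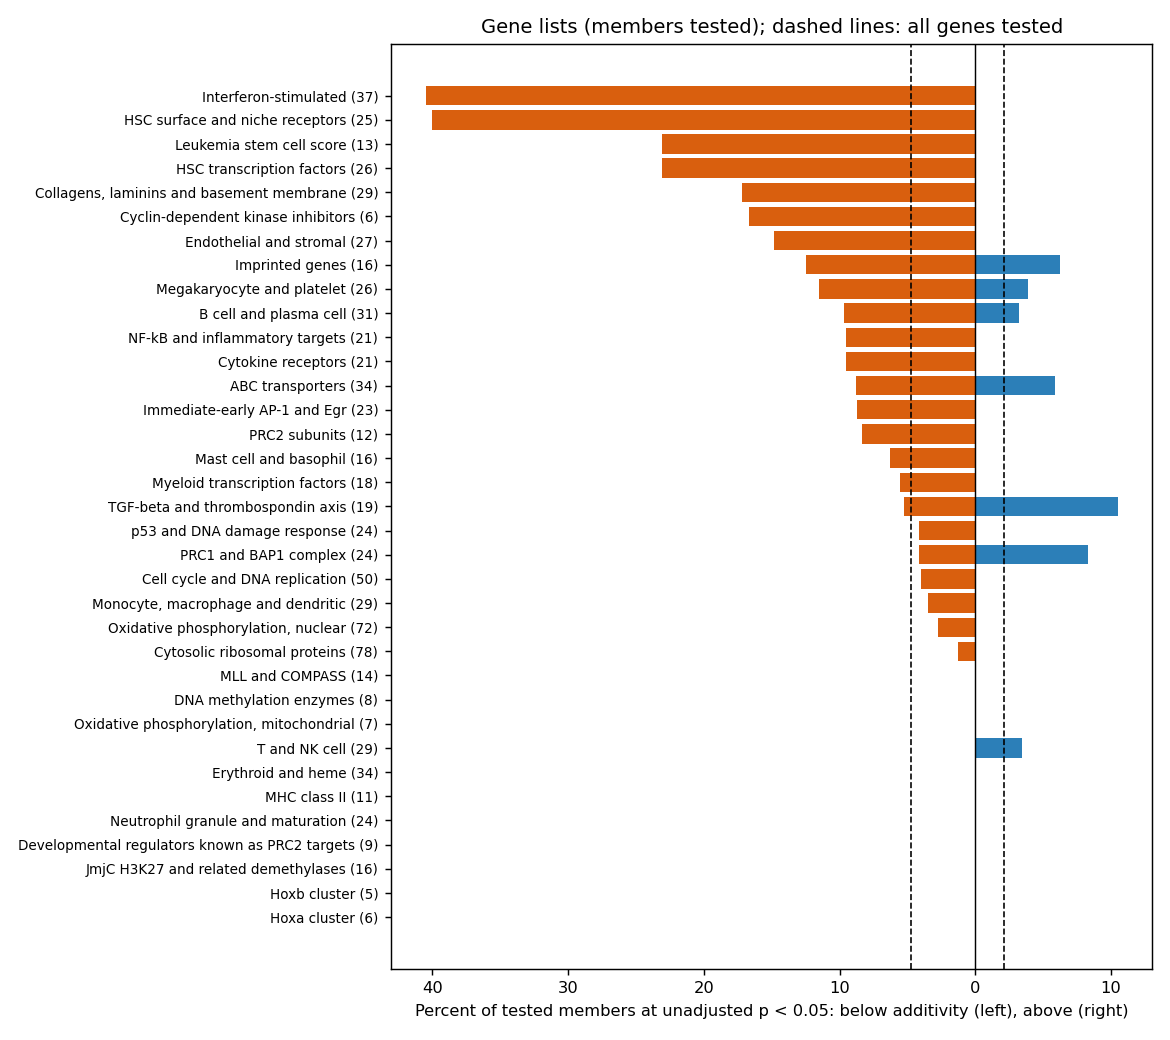
Percent of the tested members of 35 gene lists (number tested in parentheses) with an unadjusted p under 0.05 below additivity (orange, to the left) and above it (blue, to the right), with the shares of all genes tested, 4.72% and 2.15%, as dashed lines; sex-linked transcripts are left out. Interferon-stimulated genes (40.5%) and HSC surface genes (40%) have the longest bars.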

How the data were processed

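RNA was sequenced from LK cells of 12 individual mice, 3 per genotype. The deposited table holds raw read counts per gene, which the authors made by trimming with Trimmomatic, alignment to mm10 with STAR and counting with HTSeq. The annotation and the strand setting are not given in the sources used here, so values of overlapping and antisense genes are uncertain. The methods and the sample labels name different library kits and sequencers.

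From the counts, genes were filtered with filterByExpr (15825 kept, with 99.9% of counts), scaled by TMM and fitted with the quasi-likelihood model of edgeR 4.0.16 (limma 3.58.1, R 4.3.3), with 4 genotype means over all 12 libraries. The interaction was tested two-sided. Calls needed a Benjamini-Hochberg adjusted p under 0.05 and a fold above 1.5. The main test was thus edgeR, while the study's methods name DESeq2 for pairwise comparisons. DESeq2 1.42.0, limma-voom, RLE scaling, other count filters, no fold minimum, a term for Y-linked transcripts, a replicate block and leaving out each library were alternatives. Normalized counts are counts scaled to the mean effective library size. Genotypes with at most 3 counts in every library are at the floor and get no fold. The code was tested on simulated counts.

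Gene lists and members were chosen with earlier results of these data known. Named genes were the called ones and, where fewer than 5 were called in a direction, those with the smallest p up to 5. Both kinds needed an average of at least 50 normalized counts and no predicted-gene name (Gm or Rik). To these were added a preset set (Kdm6b, Asxl1, Kdm6a, Meis1, Prdm16, Gata2, Hoxb5, Thbs1, Xist and Ddx3y) and the most negative and most positive member of each of 36 lists. A further 28 genes were named after their values were seen. Gm38575 and Oas1g were also named so and are not among the 113 named genes followed through the alternatives. A few genes that this rule names are not reported here. Chromosome positions and gene types were taken from GENCODE for 97.8% of genes tested, and promoter sequences from RefSeq.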

Additional observations from a re-analysis of the deposited data

Results flagged for a closer look

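At 2 genes the effect of the Kdm6b deletion differed between the WT and Asxl1Y588XTg backgrounds by edgeR's test of the interaction. The log2 interaction was −2.77 for Tmem215 and −1.51 for Scarf1, both with an adjusted p of 0.0431. No formal test for an outlying sample was run in groups of 3 libraries.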

How the results depend on the processing

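The number of genes called depended on the test and the filter. Against 2 genes below additivity and 0 above, DESeq2 called 61 and 5 (19 adjusted p-values were not given), limma-voom 3 and 0, and a fit with no filter on low counts 179 and 79. The fit of all 32704 genes with a count gave Ddx3y, whose counts differ between libraries of 1 genotype, an adjusted p of 2.39e-103. With a mean count of at least 50, and with the presence of Y-linked transcripts in the model, 0 genes were called. With 1 library left out, 0 to 8 genes were called below and 0 to 2 above. RLE scaling called 2 and 0.

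At an unadjusted p under 0.05, 1173 genes were below and 949 above with no filter, and 557 to 1121 and 250 to 602 with 1 library left out. Interferon-stimulated genes below numbered 27 with no filter and 6 to 21 with 1 library left out. HSC transcription factor genes below numbered 12 with no filter. Noncoding genes above numbered 33 with a mean count of at least 50, and 73 to 211 with 1 library left out. The cause of these shifts was not tested.

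Of 113 named genes, 101 kept their sign under every alternative. With 1 library left out, the log2 interaction ranged from −0.10 to 0.051 for Asxl1, −0.36 to 2.22 for Dpysl3, −1.28 to 0.38 for Fcgr1, −0.16 to 0.70 for Gfi1b, −0.022 to 1.68 for H2-Eb2, −0.95 to 0.13 for Hba-a2, −0.82 to 0.15 for Hoxb3, −0.28 to 0.23 for Ifi203, −0.30 to 0.19 for Kdm6a, −0.021 to 0.47 for Phf1, −7.27 to 1.31 for Xist and −0.12 to 0.066 for mt-Cytb. With the Y-linked term, Kdm6a was at 0.0059 and Xist at 0.65, and limma-voom gave 0.35 for Xist.

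No pairing of the mice by replicate number was visible, which with 3 mice per genotype does not exclude one. Over 18 same-numbered pairs, deviations from their genotype's mean correlated at a median of −0.04 (−0.12 to 0.08), and 0 libraries correlated best with their own number. With a replicate block 2 genes were called below (Scarf1 at −1.52, Socs3) and 0 above, and Tmem215 was at −2.79 with an edgeR adjusted p of 0.0696. Interferon-stimulated genes below numbered 11 with the block.

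With 3 mice per genotype, departures under 1.5-fold in genes with fewer than 100 normalized counts were mostly beyond the precision of the fit. The sexes were not balanced over the genotypes, though their shares cancel in this contrast for a small effect that adds on the log scale. A sex effect that differs between genotypes was not tested.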
